A study of Macaca fascicularis with 86 samples.

Results

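In crab-eating macaque (Macaca fascicularis) embryos at embryonic day 18, 8 regions rich in endoderm transcripts were set against 8 regions at the opposite end of the same ranking. The ranking index of a region was its mean log2(TPM + 1) of FOXA2, SOX17 and CER1 minus its mean log2(TPM + 1) of MESP1, TBX6 and MSGN1, where TPM is a transcript level normalised for length and library size and log2(TPM + 1) is the scale of each difference given here. Only regions with EOMES at 10 TPM or more were ranked, which kept 39 of the 50 E18 regions. The 8 regions with the highest index are called high-index and the 8 with the lowest are called low-index. The 23 regions between them and the 11 regions with EOMES below 10 TPM were left out of the comparison. The groups were thus chosen by the measured levels of these 7 genes, so their own values are a description and no finding.

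The series profiled 86 regions by Geo-seq, in which small groups of cells are cut by laser from frozen sections of an embryo and their polyadenylated RNA is sequenced. The labels name no treatment, and 50 regions came from 2 embryos at E18 and 36 from 1 embryo at E20. The labels give each region its stage, embryo, section and sector, and neither the strain nor which end of the embryo section 1 marks. High-index regions came from E18 embryo 2 (6 regions) and E18 embryo 1 (2 regions), and all 8 low-index regions came from E18 embryo 2. A region can hold cells of several kinds, so fewer cells of a type and less RNA per cell cannot be told apart.

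During gastrulation, cells of the epiblast pass through the primitive streak and become mesoderm or definitive endoderm. EOMES, a T-box transcription factor, is expressed in the streak and is needed in mouse for both fates. FOXA2 and SOX17 are transcription factors of endoderm, and CER1 is a secreted antagonist of NODAL, BMP and WNT signals made by endoderm. MESP1, TBX6 and MSGN1 are transcription factors of newly formed mesoderm. The front end of the streak, the node, also gives rise to axial mesoderm, and organiser genes such as GSC and CHRD are active there.

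The endoderm genes were present in every high-index region, each with at least 45.4 TPM of FOXA2. FOXA2 stood at 45.4, 131 and 262 TPM in the high-index regions (lowest, median and highest of 8), against 0, 1.21 and 64.9 TPM in the low-index regions. SOX17 stood at 5.11, 58.2 and 102 TPM in the high-index regions, against 0, 3.82 and 28.4 TPM in the low-index regions. CER1 stood at 95.8, 453 and 1638 TPM in the high-index regions, against 0, 6.59 and 333 TPM in the low-index regions. All 3 were lower in most low-index regions, but section 5 sector 6 of embryo 2, a low-index region, had 64.9 TPM of FOXA2, 28.4 TPM of SOX17 and 333 TPM of CER1.

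The low-index regions were not all rich in nascent mesoderm. MESP1 stood at 0, 1.62 and 9.68 TPM in the high-index regions, against 0, 11.9 and 139 TPM in the low-index regions. TBX6 stood at 0, 1.67 and 6.73 TPM in the high-index regions, against 0.58, 8.60 and 68.2 TPM in the low-index regions. MSGN1 stood at 0, 0 and 4.86 TPM in the high-index regions, against 0, 22.1 and 95.2 TPM in the low-index regions. The low-index regions of embryo 2 fell into 3 kinds by their marker levels, a description made after these values were seen; the fits without the second kind, given below, were likewise chosen after seeing the data. In the first kind (section 5 sectors 6 and 7, section 2 sector 3 and section 3 sector 1), TBXT, the T-box factor of the primitive streak, had 173, 221, 99.2 and 111 TPM. MESP1 had 139, 88.2, 21.6 and 52.7 TPM in the same regions. These 4 regions held streak and mesoderm transcripts together.

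In the second kind (section 1 sector 1 and section 2 sector 1), MESP1, TBX6 and MSGN1 were each below 3 TPM, and TBXT was listed at 0. Their index was low because the endoderm genes were low as well. SOX2, a pluripotency and neural factor, had 256 and 202 TPM there, more than in any other region of either group. Their EOMES was 16.3 and 34.3 TPM. In the third kind (section 3 sector 4 and section 4 sector 4), COL3A1, a fibrillar collagen of mesenchyme, had 352 and 518 TPM. GABRP, a receptor subunit used as an amnion marker in primates, had 134 and 30.5 TPM. MESP1 was 2.02 and 0 TPM in that pair, and MSGN1 was 14.1 and 24.8 TPM. The name low-index is therefore kept in place of a tissue name.

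**Figure D1:**
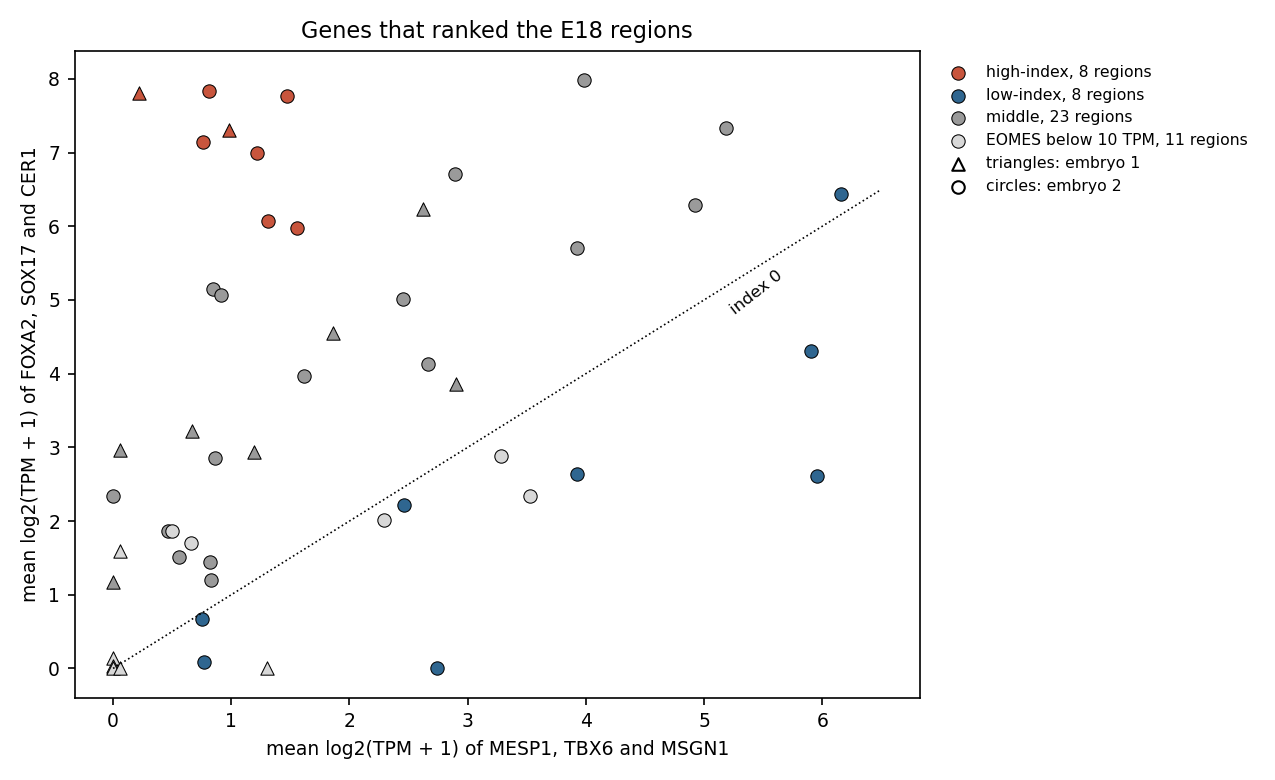
Each point is an E18 region, with the mean log2(TPM + 1) of MESP1, TBX6 and MSGN1 on the x axis and that of FOXA2, SOX17 and CER1 on the y axis; triangles are embryo 1 and circles embryo 2. The 8 high-index regions lie at the top left, and the 8 low-index regions are spread along the bottom and right, with 2 near the origin, where all 6 genes are low.

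The index of the high-index regions was between 4.42 and 7.59, and the first region left out had 4.30. The low-index regions had indices between -3.35 and 0.27, and the first region left out had 0.37. That upper neighbour, section 4 sector 1 of embryo 2, held 26.2 TPM of FOXA2, 11.1 TPM of SOX17 and 135 TPM of CER1. The edge at the lower end was narrow, so that a different choice of group size changes which regions enter.

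The high-index regions lay on average in later-numbered sections, a difference that missed the threshold after adjustment. Section position, scaled so that 0 is the first and 1 the last section of an embryo, averaged 0.875 ± 0.149 in high-index regions and 0.425 ± 0.292 in low-index regions (SD, n = 8 each). The difference of these means was 0.45. A two-sided exact permutation test within embryos (3003 permutations) gave p = 0.01998, and 0.0599 after Benjamini-Hochberg adjustment over 3 region measures. Embryo 1 had no low-index region, so the permutation p-values of all 3 measures rest on embryo 2 alone (6 against 8 regions). Within embryo 2 the mean positions were 0.833 and 0.425 in high-index and low-index regions, a difference of 0.408. Section 5 held both kinds, with sectors 1, 2 and 3 high-index and sectors 6 and 7 low-index. Genes detected at 1 TPM or more numbered 12006 ± 920.0 in high-index and 12736 ± 501 in low-index regions (exact permutation p = 0.267, adjusted 0.267). The share of TPM in 13 mitochondrially encoded genes was 20.9% ± 11.1 in high-index and 33.0% ± 11.6 in low-index regions (exact permutation p = 0.171, adjusted 0.257). Within embryo 2, which these p-values test, the means were 12312 and 12736 genes and shares of 24.2% and 33.0%. Regions share an embryo, so these p-values are too small, and the part of these measures in the results below was not tested except by the covariate and scaling alternatives given in the closing section.

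Of 14823 genes tested, 113 were higher and 14 were lower in high-index than in low-index regions (limma on log2(TPM + 1) with embryo as a block, Benjamini-Hochberg adjusted p below 0.05). These are 0.762% and 0.0944% of the genes tested, the shares to set beside each count of called list members below. Another way to read the contrast is overlap, and 39 genes were higher in every high-index region than in any low-index region while 11 were the reverse, together 0.337% of genes. Since only embryo 2 held both kinds of region, each log2 difference is that of embryo 2 (6 against 8 regions), while the ranges below cover all 16 regions. The median difference over all genes was 0.13, and 59.4% of genes were above zero. At an unadjusted p below 0.05 there were 1846 genes (12.5%), of which 671 were lower (4.53% of the genes tested). In the RefSeq annotation of the T2T-MFA8v1.1 assembly 12 of 35 genes named as called overlap another gene (LHB, LHX1, OTX2, SEMA3E, SIX3, COL4A6, TEKT1, FLRT3, PDYN, F2RL1, PSORS1C2 and SLC38A5), and since strand handling of the reads was not given their reads cannot be told apart from those of the overlapping gene. Regions of 1 embryo are not independent animals, so these p-values are too small and measure the spread between regions, and a call says that a gene varied with a ranking made on other genes of the same libraries. Leaving out 1 region moved the count of higher genes to between 32 and 220, and the count was 62 higher and 29 lower without the pair of low-index regions in which MESP1, TBX6 and MSGN1 were each below 10 TPM, an alternative chosen after seeing the data. Without mitochondrially encoded genes the counts were 42 and 15, and 73.7% of calls were higher in place of 89.0%. Of the genes named below, TEKT1, SLC38A5, COL4A6, CMKLR1, FGF8, C4H6orf163, FOXJ1 and CFAP43 kept their call in only 11 to 19 of up to 39 alternative settings.

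Several definitive endoderm genes were higher together in the high-index regions. Of the 18 members tested of a list of 20, 5 rose (HHEX, CXCR4, KIT, SHISA2 and FZD5) and none fell (limma, adjusted p below 0.05). Over all genes 0.762% rose and 0.0944% fell. The median difference of the list was 1.76, beside 0.13 for all genes, and 15 of 18 members were above zero, beside 59.4% of all genes. All 5 remained called when any one of the 16 regions was left out and without the pair of low-index regions with little mesoderm signal, while KIT lost its call with MSGN1 left out of the index and with only the 4 low-index regions below an index of -1.

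HHEX, a homeobox factor of anterior definitive endoderm, had 77.9, 105 and 200.4 TPM in the high-index regions (lowest, median and highest of 8), against 0, 4.46 and 17.7 TPM in the low-index regions. No low-index region reached the level of any high-index region. Its log2 difference was 4.41 ± 0.53 (SE) with an adjusted p of 0.000451 (limma). SHISA2, whose Xenopus relative Shisa holds back maturing Frizzled and FGF receptors, had 157, 351 and 604 TPM in the high-index regions, against 3.86, 15.7 and 34.8 TPM in the low-index regions. Its groups were also apart, with a difference of 4.35 ± 0.44 (SE) and the smallest adjusted p among the named genes, 8.14e-05 (limma).

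CXCR4, the receptor of the chemokine CXCL12 and a surface marker of definitive endoderm, had 28.9, 197 and 433 TPM in the high-index regions, against 1.31, 5.05 and 49.1 TPM in the low-index regions. The overlap came from 1 high-index region, section 5 sector 3, with 28.9 TPM, which was below low-index section 5 sector 6 with 49.1 TPM. The log2 difference was 4.36 ± 0.68 (SE), adjusted p = 0.0037 (limma). KIT, a receptor tyrosine kinase often paired with CXCR4 to sort endoderm in culture, had 6.12, 101 and 219.7 TPM in the high-index regions, against 5.12, 7.63 and 10.5 TPM in the low-index regions. Section 5 sector 3 was again the low one of the high-index regions at 6.12 TPM. The KIT difference was 3.26 ± 0.56 (SE), adjusted p = 0.00677 (limma).

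FZD5, a Frizzled receptor for WNT ligands, had 19.7, 115 and 410.3 TPM in the high-index regions, against 0, 2.04 and 19.9 TPM in the low-index regions. The 7 highest values were all in high-index regions, and low-index section 1 sector 1, one of the SOX2-rich pair, was level with high-index section 5 sector 3, which held 19.7 TPM against 19.9 TPM in that low-index region. Its log2 difference of 5.18 ± 0.66 (SE) was the largest of any named gene (adjusted p = 0.000581, limma).

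Other endoderm factors did not pass the test. GATA6 had 9.94, 24.7 and 47.7 TPM in the high-index regions, against 0, 7.52 and 30.0 TPM in the low-index regions, a difference of 2.39 ± 0.70 (SE). FOXA1, a forkhead factor related to FOXA2, had 1.44, 9.90 and 23.9 TPM in the high-index regions, against 0, 0.771 and 4.67 TPM in the low-index regions, a difference of 1.94 ± 0.49 (SE). Both differences were positive, with adjusted p of 0.125 and 0.0691 (limma). EPCAM, an epithelial adhesion molecule, had 78.5, 260.4 and 507 TPM in the high-index regions, against 104, 179.5 and 248 TPM in the low-index regions, and its groups overlapped widely.

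Some node and organiser genes were higher in the high-index regions, but which of them passed depended on single regions. Of 12 members tested of a list of 15, 4 rose (LHX1, OTX2, GSC and FOXJ1) and none fell, beside 0.762% and 0.0944% of all genes. The median difference was 2.51, beside 0.13 for all genes. All 4 lost their call without section 6 sector 3 or without section 5 sector 2, both high-index, and only OTX2 kept it without section 5 sector 1 or without the pair of low-index regions with little mesoderm signal. Only OTX2 kept it with CER1 left out of the index.

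OTX2, a homeobox factor of anterior epiblast and anterior endoderm, had 215, 410.0 and 737 TPM in the high-index regions, against 4.02, 58.3 and 157 TPM in the low-index regions. Its groups did not overlap, and the difference was 3.41 ± 0.65 (SE), adjusted p = 0.0163 (limma). GSC, the goosecoid homeobox factor of the organiser, had 5.35, 66.5 and 103 TPM in the high-index regions, against 0.59, 1.98 and 25.7 TPM in the low-index regions. Every high-index region was above 49 TPM but section 4 sector 2, which held 5.35 TPM, and the difference was 3.37 ± 0.66 (SE), adjusted p = 0.0191 (limma). LHX1, a LIM homeobox factor that works with OTX2 and FOXA2 in mouse anterior mesendoderm, had 183, 376 and 628 TPM in the high-index regions, against 0.419, 18.8 and 342 TPM in the low-index regions. The mesoderm-rich low-index regions section 5 sectors 6 and 7 carried 342 and 164 TPM of LHX1, so the groups overlapped although the difference was 4.43 ± 0.93 (SE), adjusted p = 0.0271 (limma).

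CHRD, the secreted BMP antagonist chordin, had 2.38, 276 and 2557 TPM in the high-index regions, against 0.181, 4.17 and 130.3 TPM in the low-index regions. The highest value was in section 5 sector 3, and high-index section 4 sector 2 held only 2.38 TPM. The difference of 4.68 ± 1.17 (SE) was not called (adjusted p = 0.0665, limma). NOTO, a notochord homeobox factor, had 56.5 TPM in embryo 1 section 4 sector 2 and 47.7 TPM in embryo 2 section 5 sector 3, both high-index, and no more than 5.85 TPM in any other of the 16 regions. DKK1, a secreted WNT antagonist, had 16.9, 52.9 and 561 TPM in the high-index regions, against 0, 4.08 and 44.0 TPM in the low-index regions, with an uncalled difference of 2.75 ± 0.67 (SE) and an adjusted p of 0.0573 (limma). Not all list members were highest in high-index regions. FST ran from 42.2 to 87.9 TPM in high-index regions, against 24.7 to 461 TPM in low-index regions. DKK4 reached 1371 and 1054 TPM in low-index section 5 sectors 6 and 7, against at most 757 TPM in high-index regions.

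**Figure D2:**
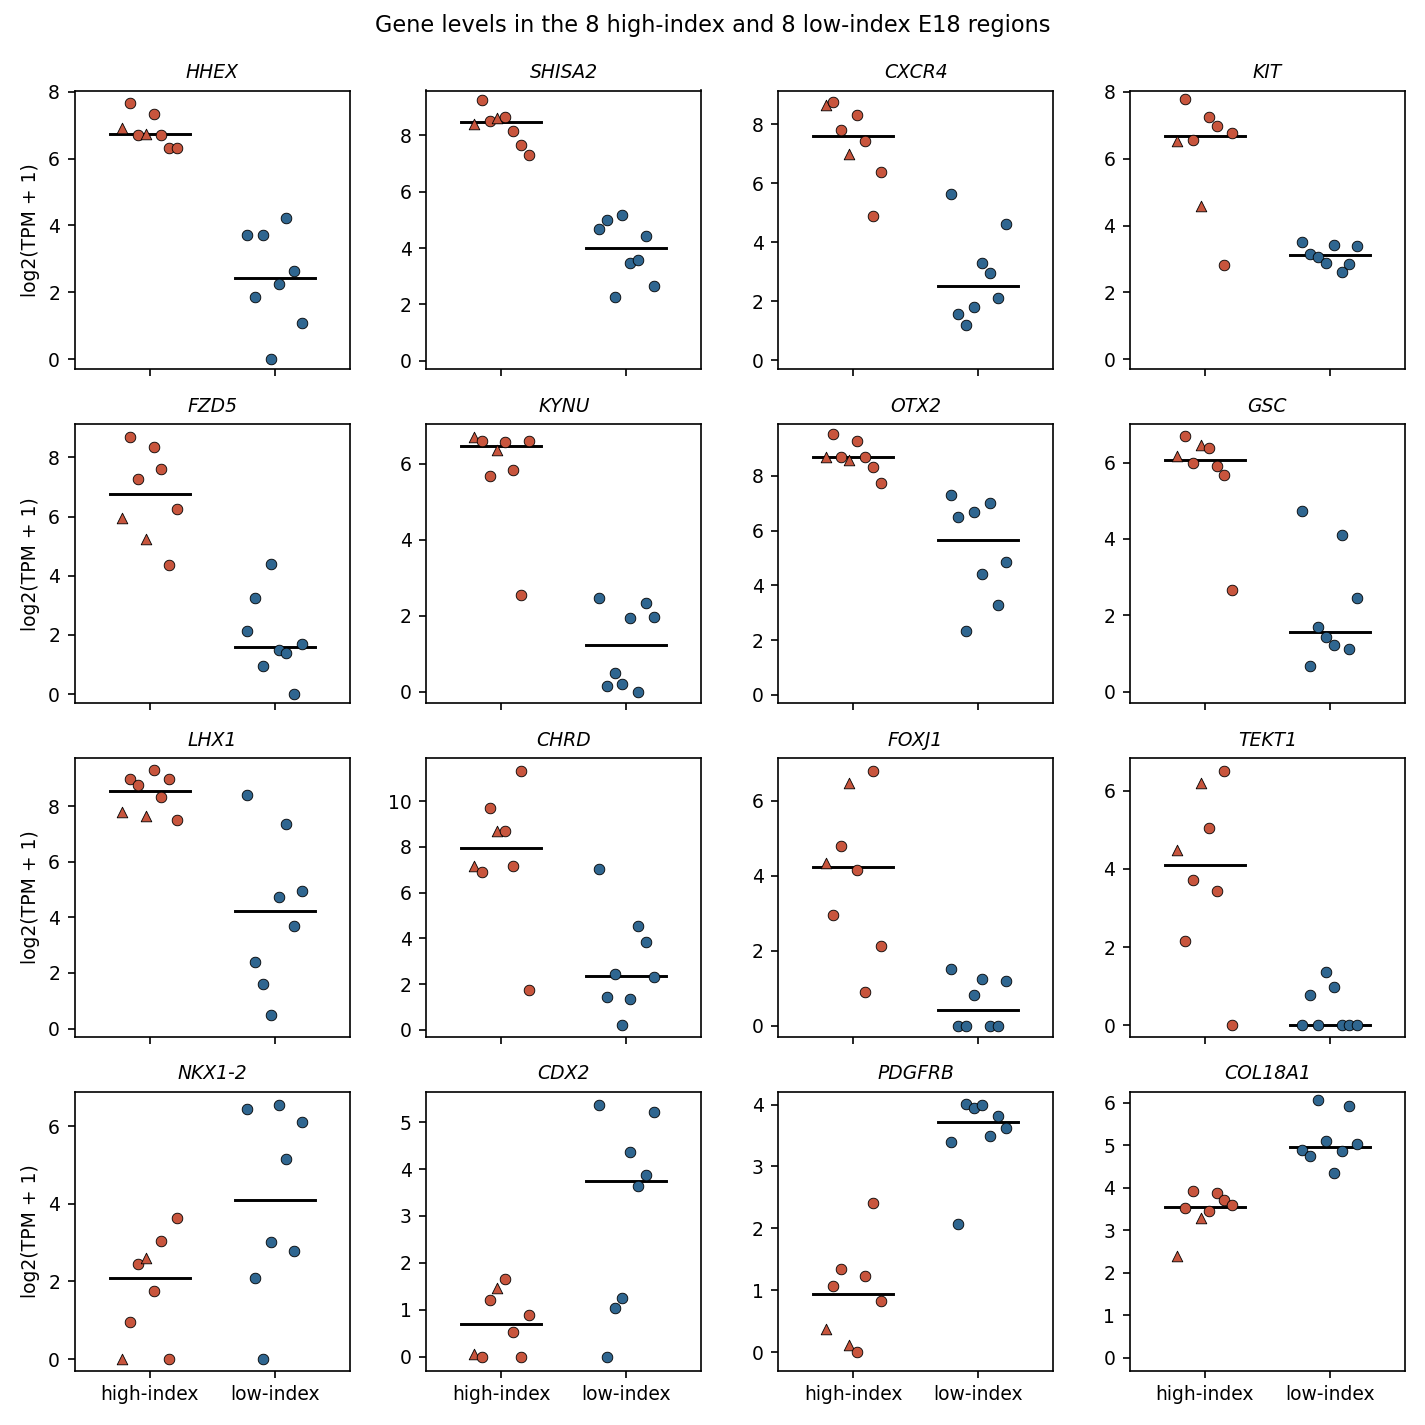
Each panel gives the log2(TPM + 1) of 1 gene in the 8 high-index regions (left) and the 8 low-index regions (right); triangles are embryo 1, circles embryo 2 and bars are medians. HHEX, SHISA2, KYNU, OTX2 and COL18A1 do not overlap between the groups, whereas LHX1 and CHRD do and the 4 regions rich in TBXT hold the high values of NKX1-2.

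FOXJ1 rose, and its call depended on single regions. FOXJ1, the transcription factor that switches on motile cilia and is expressed at the node, had 0.869, 17.8 and 110.1 TPM in the high-index regions, against 0, 0.383 and 1.86 TPM in the low-index regions. It was spread widely within the high-index regions, at 110.1 TPM in section 5 sector 3 and 87.3 TPM in embryo 1 section 4 sector 2 but 0.869 TPM in section 6 sector 2. The FOXJ1 difference was 3.02 ± 0.68 (SE), adjusted p = 0.037 (limma). TEKT1, DNAJB13 and CFAP43, which encode parts of the ciliary axoneme, were picked out after their values were seen, so they say nothing of ciliary genes as a group. TEKT1 had 0, 16.8 and 90.4 TPM in the high-index regions, against 0, 0 and 1.56 TPM in the low-index regions, and its high values fell in the same regions as those of FOXJ1, with 90.4 and 72.1 TPM in the top pair. The TEKT1 difference was 3.09 ± 0.71 (SE), that of DNAJB13 was 3.47 ± 0.74 (SE) and that of CFAP43 was 2.26 ± 0.51 (SE), with adjusted p of 0.0402, 0.0295 and 0.0358 (limma). With each of the 16 regions left out in turn, FOXJ1 kept its call in 7 fits, TEKT1 in 2, DNAJB13 in 9 and CFAP43 in 6. TEKT1 was listed at 0 in high-index section 4 sector 2, the region that was also low in CHRD and GSC.

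Several of the largest differences lay outside the gene lists. KYNU, kynureninase of the tryptophan breakdown pathway, had 4.79, 87.8 and 103 TPM in the high-index regions, against 0, 1.63 and 4.56 TPM in the low-index regions. Every high-index region was above 50 TPM but section 5 sector 3, at 4.79 TPM just above the highest low-index region, and the difference was 4.45 ± 0.60 (SE), adjusted p = 0.000961 (limma). ARHGDIG had 5.56, 35.7 and 106 TPM in the high-index regions, against 0, 0.33 and 7.31 TPM in the low-index regions, with a difference of 4.67 ± 0.60 (SE). SEMA3E, a secreted semaphorin, had 6.43, 40.0 and 93.9 TPM in the high-index regions, against 0, 3.30 and 8.53 TPM in the low-index regions, with a difference of 3.50 ± 0.50 (SE). The 2 had adjusted p of 0.000631 and 0.00176 (limma), and in both 1 high-index region fell within the low-index range.

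SLC38A3, a sodium-coupled glutamine transporter, had 1.79, 56.7 and 111 TPM in the high-index regions, against 0.516, 2.17 and 24.0 TPM in the low-index regions. Its levels split the high-index regions, with 5 regions of embryo 2 above 38 TPM and the remaining 3, embryo 1 included, below 11 TPM. PDIA2, a protein disulfide isomerase, had 0.146, 35.3 and 85.4 TPM in the high-index regions, against 0, 0.644 and 5.51 TPM in the low-index regions and followed the same split. The differences were 3.62 ± 0.72 (SE) for SLC38A3 and 3.64 ± 0.74 (SE) for PDIA2, adjusted p = 0.0209 and 0.0236 (limma). C4H6orf163, named only by its open reading frame, had 0.236, 29.8 and 90.8 TPM in the high-index regions, against 0, 0.23 and 6.98 TPM in the low-index regions and a difference of 3.48 ± 0.75 (SE) (limma, adjusted p = 0.0295). LHB, annotated as the luteinizing hormone beta subunit, had 3.60, 66.7 and 372 TPM in the high-index regions, against 0, 1.21 and 4.27 TPM in the low-index regions and a difference of 5.01 ± 0.70 (SE) (limma, adjusted p = 0.00122). LHB belongs to a family of near-identical chorionic gonadotropin genes and overlaps RUVBL2, so its reads are uncertain, and CGA, the shared alpha subunit, was above 20 TPM in only 1 high-index region.

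VEGFA also rose. VEGFA, the vascular growth factor, had 44.9, 88.5 and 182 TPM in the high-index regions, against 8.86, 19.9 and 30.8 TPM in the low-index regions, and each high-index region exceeded every low-index region. Its difference was 1.97 ± 0.34 (SE), adjusted p = 0.0062 (limma), and it was the 1 called member of 9 tested in the glycolysis and hypoxia list. FLRT3, a membrane protein that mouse endoderm needs to migrate, was picked out after its values were seen. FLRT3 had 23.1, 25.2 and 40.1 TPM in the high-index regions, against 0.396, 2.35 and 11.8 TPM in the low-index regions, a narrow range among the high-index regions, with a difference of 3.04 ± 0.46 (SE) and an adjusted p of 0.00276 (limma). STC1, PDYN and WFDC2, which encode secreted proteins and were also picked out afterwards, had differences of 3.10 ± 0.65 (SE), 3.32 ± 0.66 (SE) and 2.87 ± 0.61 (SE) (adjusted p = 0.0271, 0.0204 and 0.0295, limma). WFDC2 was abundant, with 128, 1199 and 2573 TPM in the high-index regions, against 47.1, 98.3 and 520.2 TPM in the low-index regions. In the 16 fits that each left out 1 region, STC1 kept its call in 10, PDYN in 13 and WFDC2 in 8.

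The basement membrane list moved in both directions. Of 13 members tested, COL4A5 and COL4A6, a pair of type IV collagen chains that assemble together, rose and COL18A1, type XVIII collagen, fell. Over all genes 0.762% rose and 0.0944% fell. COL4A5 had 7.06, 12.8 and 26.6 TPM in the high-index regions, against 3.85, 4.99 and 7.04 TPM in the low-index regions, a difference of 1.49 ± 0.27 (SE). COL4A6 had 0.56, 6.18 and 11.5 TPM in the high-index regions, against 0.942, 1.94 and 4.38 TPM in the low-index regions, a difference of 1.41 ± 0.31 (SE). Adjusted p-values were 0.0107 and 0.0325 (limma), and the common chains COL4A1 and COL4A2 were not called, with differences of 0.24 ± 0.33 (SE) and 0.60 ± 0.32 (SE). COL18A1 had 4.29, 10.8 and 14.2 TPM in the high-index regions, against 19.5, 30.1 and 66.4 TPM in the low-index regions, without overlap. Its difference was -1.44 ± 0.29 (SE), adjusted p = 0.0209 (limma). The highest COL18A1 values lay in the mesenchyme-rich pair of low-index regions, but each of the other 6 low-index regions was also above every high-index region.

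**Figure D3:**
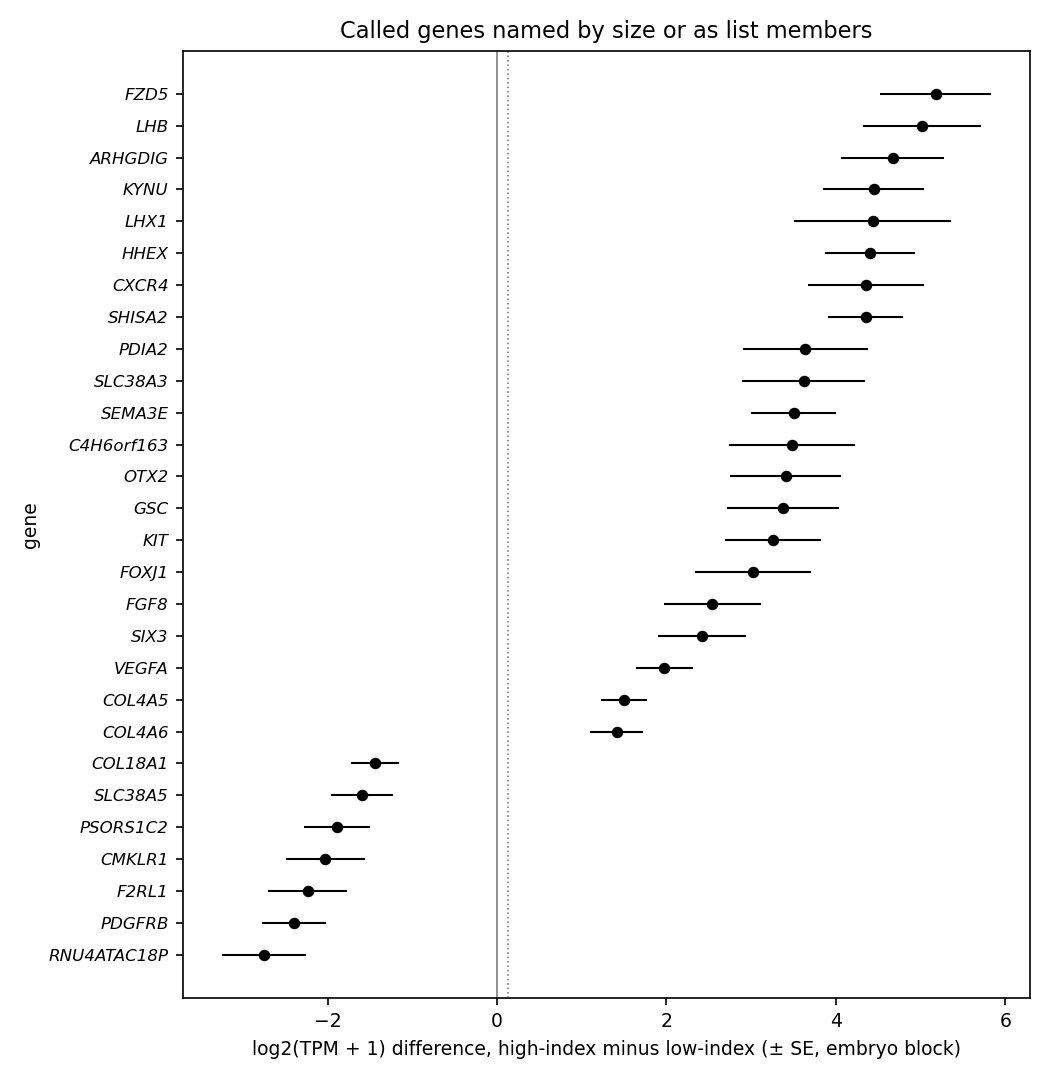
Log2(TPM + 1) difference of high-index minus low-index regions (points) with its standard error (bars), from the limma fit with embryo as a block, for the called genes named by size or as list members. The dotted line is the median of all genes, 0.13; FZD5 lies highest at 5.18 and RNU4ATAC18P lowest at -2.75.

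Only 14 genes fell in the high-index regions, and 7 of them averaged 5 TPM or more. PDGFRB, a receptor for platelet-derived growth factor typical of mesenchymal cells, had 0, 0.931 and 4.33 TPM in the high-index regions, against 3.22, 12.2 and 15.1 TPM in the low-index regions. A high-index region, section 5 sector 3, overlapped 1 low-index region, section 2 sector 1. The PDGFRB difference was -2.40 ± 0.38 (SE), adjusted p = 0.00372 (limma). F2RL1, a protease-activated receptor, had 1.00, 4.55 and 21.7 TPM in the high-index regions, against 8.10, 22.7 and 72.1 TPM in the low-index regions, a difference of -2.24 ± 0.47 (SE). CMKLR1, the chemerin receptor, had 0.0831, 1.23 and 3.62 TPM in the high-index regions, against 2.02, 9.06 and 24.4 TPM in the low-index regions, a difference of -2.03 ± 0.47 (SE). Their adjusted p were 0.028 and 0.0446 (limma), and in both genes some high-index regions lay inside the low-index range.

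SLC38A5, another glutamine transporter, moved opposite to SLC38A3 and had 2.26, 11.3 and 34.4 TPM in the high-index regions, against 14.8, 28.2 and 54.4 TPM in the low-index regions. The difference was -1.59 ± 0.36 (SE), adjusted p = 0.0402 (limma), and the call was kept in 12 of 39 alternative settings. PSORS1C2 had 0.294, 1.99 and 4.61 TPM in the high-index regions, against 3.15, 11.2 and 13.3 TPM in the low-index regions, a difference of -1.89 ± 0.39 (SE) with an adjusted p of 0.0243 (limma). RNU4ATAC18P is annotated as a pseudogene of the minor spliceosome RNA U4atac, so its short reads are uncertain, and it had 0, 0 and 6.13 TPM in the high-index regions, against 5.24, 15.4 and 29.6 TPM in the low-index regions, a difference of -2.75 ± 0.50 (SE) and an adjusted p of 0.0103 (limma).

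Primitive streak genes overlapped between the groups. Of 15 members tested, FGF8 rose and none fell, and the median difference was 0.42 beside 0.13 for all genes. FGF8, a ligand of gastrulating cells, had 5.36, 11.6 and 24.9 TPM in the high-index regions, against 0, 0.848 and 11.3 TPM in the low-index regions, with a difference of 2.54 ± 0.57 (SE) and an adjusted p of 0.037 (limma). The low-index regions with the most FGF8 were section 5 sectors 6 and 7, at 11.3 and 6.17 TPM.

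TBXT had 2.42, 15.9 and 50.4 TPM in the high-index regions, against 0, 64.9 and 221 TPM in the low-index regions, an uncalled difference of -0.58 ± 1.23 (SE). MIXL1, a homeobox factor of mesendoderm, had 10.3, 96.7 and 550.2 TPM in the high-index regions, against 0, 79.7 and 699 TPM in the low-index regions, an uncalled difference of 0.42 ± 1.33 (SE). Both genes were present in the high-index regions, and the low-index values ran from 0 to well above them. FGF17, related to FGF8, had 63.4, 781 and 1268 TPM in the high-index regions, against 0, 28.2 and 1135 TPM in the low-index regions. It was above 380 TPM in 7 of 8 high-index regions, but section 5 sectors 6 and 7 of the low-index group held 1135 and 679 TPM, and the difference of 4.15 ± 1.29 (SE) was not called (adjusted p = 0.155, limma).

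Further mesoderm lists gave no call in either direction. Of the nascent and paraxial mesoderm list 17 members were tested, with a median difference of -0.22. Of the lateral, cardiac and intermediate mesoderm list 19 were tested, with a median of -0.27. Both medians were below the 0.13 of all genes. APLNR, the apelin receptor, an early mesoderm gene, had 25.4, 54.4 and 521 TPM in the high-index regions, against 3.99, 102 and 556 TPM in the low-index regions. High-index section 4 sector 2 held 521 TPM of APLNR, close to the 556 TPM of low-index section 3 sector 1.

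Posterior factors and HOX genes were low in every high-index region and in 2 low-index regions, and none was called. The list's mean level, in log2(TPM + 1), was between 0.20 and 0.79 in high-index regions and between 0.48 and 2.73 in low-index regions, where section 1 sector 1 and section 2 sector 1 had 0.48 and 0.68 and the other 6 were at or above 1.64. Of 19 list members 17 were tested, and none was above zero, beside 59.4% of all genes. The median difference was -1.15, and 12 had an unadjusted p below 0.05 (limma), beside 12.5% of all genes, or 4.53% counting lower genes alone. CDX2, a caudal homeobox factor, had 0, 0.639 and 2.16 TPM in the high-index regions, against 0, 12.5 and 40.6 TPM in the low-index regions, a difference of -2.38 ± 0.74 (SE). NKX1-2, a homeobox factor of the posterior growth zone, had 0, 3.40 and 11.3 TPM in the high-index regions, against 0, 21.0 and 93.1 TPM in the low-index regions, a difference of -2.05 ± 0.93 (SE). NKX1-2 stood at 86.3, 34.9, 93.1 and 68.1 TPM in the 4 TBXT-rich low-index regions (section 5 sectors 6 and 7, section 2 sector 3 and section 3 sector 1) and below 8 TPM in the other 4. Adjusted p were 0.155 and 0.369 (limma).

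None of 16 tested WNT ligands and targets was called, and the median difference was -0.89 (limma). In either direction 9 had an unadjusted p below 0.05, beside 12.5% of all genes. The difference was above zero in 4 of the 16, beside 59.4% of all genes. LGR5, a member of the list, ran from 4.17 to 112 TPM in high-index regions, against 0.477 to 17.7 TPM in low-index regions. WNT8A, a ligand of the streak, had 0, 0.633 and 5.79 TPM in the high-index regions, against 1.08, 24.0 and 82.2 TPM in the low-index regions. WNT5B, another ligand, had 0, 7.69 and 17.1 TPM in the high-index regions, against 2.85, 46.5 and 115 TPM in the low-index regions. WNT8A and WNT5B were both above 43 TPM in each of the 4 TBXT-rich low-index regions and at most 17.1 TPM in the other 12 regions. The differences were -3.20 ± 0.82 (SE) and -2.15 ± 0.85 (SE), adjusted p = 0.0756 and 0.3 (limma). RSPO3, which strengthens WNT signals, had 2.60, 4.00 and 69.5 TPM in the high-index regions, against 1.34, 39.5 and 411 TPM in the low-index regions, a difference of -2.39 ± 1.10 (SE). Among 15 tested secreted WNT antagonists and Frizzled receptors, FZD5 was the 1 call.

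In the NODAL and activin list 0 of 16 tested members were called, with a median of 0.33, and in the BMP list 0 of 16, with a median of 0.29 (limma, with 4 members of each list at an unadjusted p below 0.05, beside 12.5% of all genes). NODAL had 4.65, 18.1 and 242 TPM in the high-index regions, against 0, 12.2 and 47.4 TPM in the low-index regions, and the highest pair were the regions of embryo 1, with 242 and 182 TPM. BMP2 had 0.903, 99.2 and 212 TPM in the high-index regions, against 0.575, 6.31 and 85.1 TPM in the low-index regions. BMP2 was at 0.903 TPM in high-index section 5 sector 3, the region with the most CHRD, and above 78 TPM in each other high-index region, an uncalled difference of 2.71 ± 0.99 (SE) with an adjusted p of 0.246 (limma). BMP4 had 20.9, 48.3 and 165 TPM in the high-index regions, against 35.6, 67.6 and 143 TPM in the low-index regions, a difference of -0.13 ± 0.40 (SE).

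FGF8 was the 1 call of 20 tested FGF ligands, receptors and feedback targets. None of 13 Notch genes and none of 12 retinoic acid genes was called (limma, with 2 and 3 at an unadjusted p below 0.05, beside 12.5% of all genes). CYP26A1, which breaks down retinoic acid, had 96.0, 197 and 276 TPM in the high-index regions, against 1.20, 82.4 and 291 TPM in the low-index regions. ALDH1A2, which makes it, had 0, 0.437 and 5.04 TPM in the high-index regions, against 0.849, 2.19 and 52.7 TPM in the low-index regions. High ALDH1A2 was seen in 3 of the 4 TBXT-rich low-index regions. The differences, 2.10 ± 0.91 (SE) and -2.18 ± 0.76 (SE), were not called.

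Epithelial and mesenchymal genes were also uncalled. In 15 tested genes of epithelial junctions and 14 of mesenchymal transition, 0 passed (limma, with 4 and 3 at an unadjusted p below 0.05, beside 12.5% of all genes). The median differences were 0.20 and 0.19, and 9 and 8 members were above zero, beside 59.4% of all genes. The 2 cadherins below do not stand for their lists. CRB3, another epithelial member, ran from 29.7 to 138 TPM in high-index regions, against 7.10 to 40.7 TPM in low-index regions. CDH1, E-cadherin, had 0.749, 6.20 and 18.2 TPM in the high-index regions, against 6.45, 20.1 and 41.7 TPM in the low-index regions, a difference of -1.57 ± 0.47 (SE). CDH2, N-cadherin, had 126, 227 and 429 TPM in the high-index regions, against 8.19, 55.0 and 364 TPM in the low-index regions, a difference of 2.25 ± 0.71 (SE). CDH2 exceeded CDH1 in TPM in 8 of 8 high-index regions and in 5 of 8 low-index regions, with adjusted p of 0.133 and 0.158 for the contrast (limma). The cell cycle list had 0 of 20 members called and 0 at an unadjusted p below 0.05, with a median of 0.20. The immediate early and heat shock list had 0 of 8 called, 2 at an unadjusted p below 0.05 and a median of 0.16.

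Markers of other cell types were examined beside these results. None of 14 epiblast, 14 amnion, 15 extraembryonic mesenchyme, 13 blood and endothelium, 18 hypoblast and yolk sac, 6 trophoblast and 9 immune genes was called (limma, with 2, 4, 6, 4, 1, 0 and 1 at an unadjusted p below 0.05, beside 12.5% of all genes). The medians were -0.12, -0.60, -0.82, -0.74, 0.05, -0.51 and -0.29 in that order. Of 6 neural genes tested OTX2, which is also on the node list, and SIX3 rose, beside 0.762% of all genes. Of 6 germ cell genes KIT, which is also on the endoderm list, rose. SIX3, an anterior homeobox factor, had 0.404, 6.23 and 15.3 TPM in the high-index regions, against 0, 0 and 4.58 TPM in the low-index regions, a difference of 2.42 ± 0.52 (SE) and an adjusted p of 0.0295 (limma). It kept its call in 8 of the 16 fits that each left out 1 region.

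The mesenchyme and amnion lists were high in 1 pair of low-index regions. Mean list levels, in log2(TPM + 1), were between 1.62 and 2.74 for mesenchyme in high-index regions, and between 1.56 and 5.43 in low-index regions. The low-index regions at the top were section 4 sector 4 at 5.43 and section 3 sector 4 at 5.21, with all others at or below 2.54. For amnion the same regions had 4.29 and 4.56, against at most 2.39 in high-index regions. Their epiblast level was 2.98 and 2.51, where no other of the 16 regions was below 4.64. Their mitochondrial share was 46.7% and 48.8%. The part of these markers in the gene calls was not tested beyond leaving out each region.

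**Figure D4:**
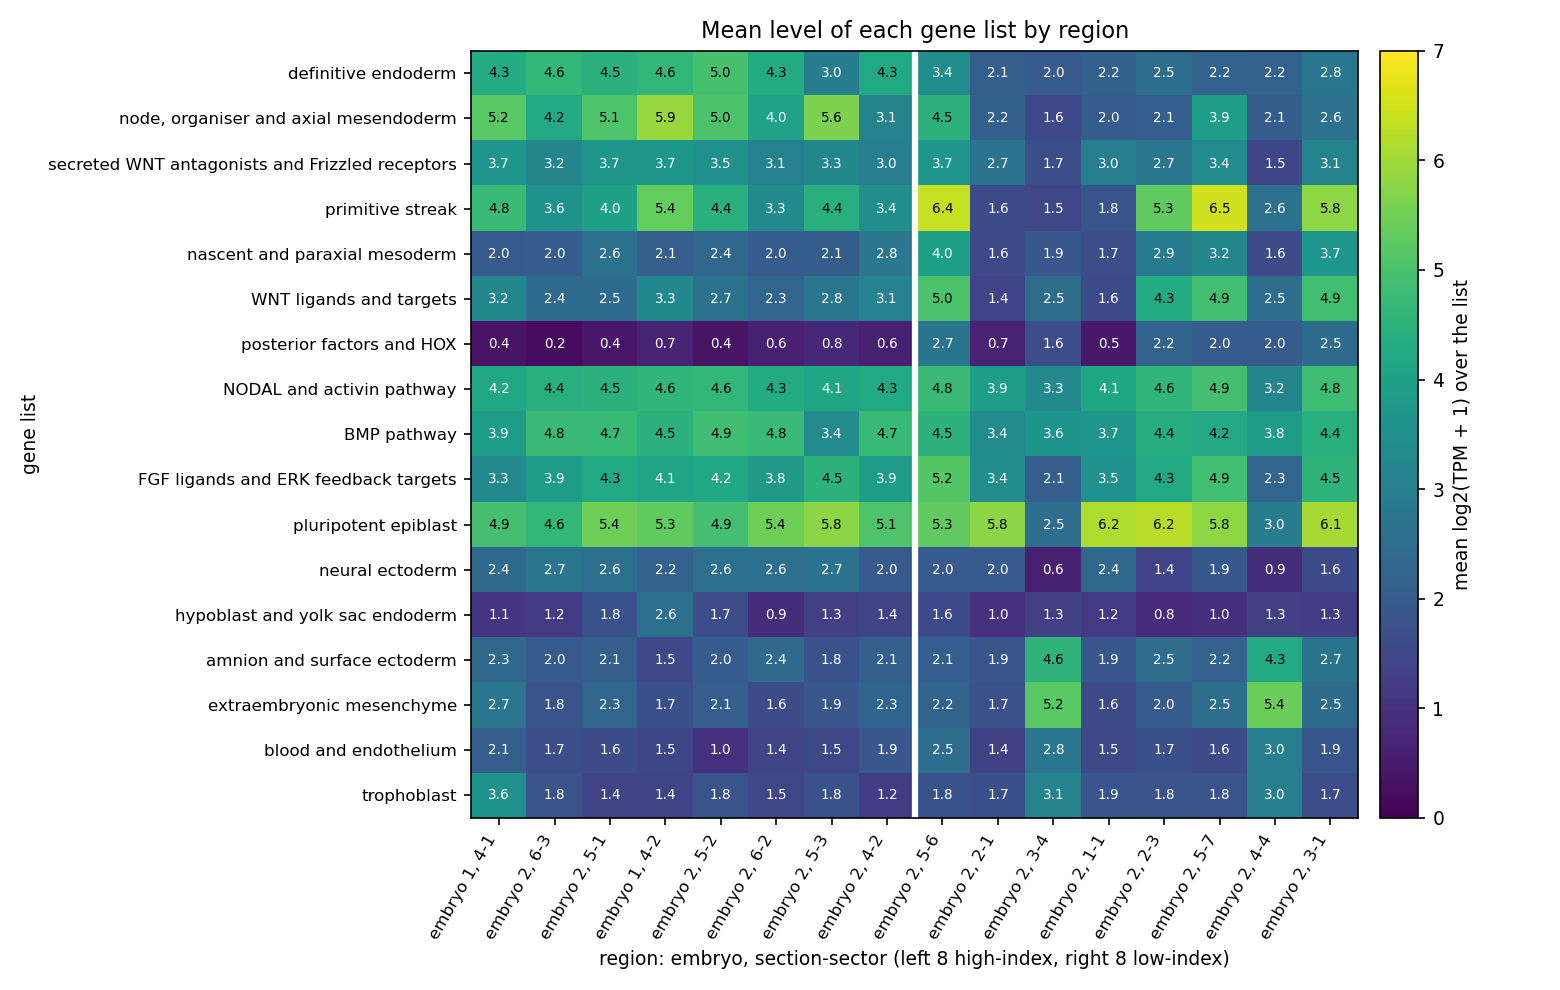
Mean log2(TPM + 1) of each gene list (rows) in each region (columns, named by embryo and section-sector), with the 8 high-index regions on the left and the 8 low-index regions on the right. Posterior factors and HOX are dark in all high-index columns and in low-index section 1 sector 1 and section 2 sector 1, primitive streak is brightest in 3 low-index columns (5.81 to 6.49), and the mesenchyme and amnion lists are bright in section 3 sector 4 and section 4 sector 4.

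The high-index regions were not uniform. Section 5 sector 3 had the most CHRD, FOXJ1, TEKT1 and CFAP43, and the least KYNU, KIT, SOX17, CXCR4 and BMP2 of the 8. Its FOXA2 was the highest of the 8, at 262 TPM, while SOX17 was 5.11 TPM. Its definitive endoderm list level was 2.96, below the 4.25 to 4.95 of the other 7 and also below the 3.42 of low-index section 5 sector 6. Its node list level was 5.63, the second highest of the 8. This region also had 13958 genes detected, against 11065 to 12435 in the other 7, and a mitochondrial share of 43.3%. Leaving it out moved the counts to 220 higher and 42 lower genes.

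Section 4 sector 2 of embryo 2 was the opposite in CHRD, TEKT1 and the node list level. It held 2.38 TPM of CHRD, 5.35 TPM of GSC and 0 TPM of TEKT1, together with 79.4 TPM of HHEX, 109 TPM of KIT and 157 TPM of SHISA2. It also had the most STC1, 233 TPM, and its ID1, a target of BMP signalling, was the highest of the high-index regions at 956 TPM, below the 995 TPM of low-index section 2 sector 3. Its endoderm list level was 4.25 and its node list level 3.12, the lowest of the 8. Its FOXA2, CER1 and SHISA2 were the lowest of the 8, at 45.4, 95.8 and 157 TPM. Not every organiser gene was low there, with LHX1 at 183, OTX2 at 215 and DKK1 at 61.2 TPM. LHX1 and OTX2 were nonetheless the lowest of the 8. HHEX and KIT thus stood there beside low CHRD, GSC and TEKT1.

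The remaining high-index regions of embryo 2, section 5 sectors 1 and 2 and section 6 sectors 2 and 3, carried both groups of genes. HHEX was 104, 161, 104 and 200.4 TPM there. CHRD was 823, 412, 141 and 118 TPM in the same order.

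The pair from embryo 1 differed from those of embryo 2 in other markers. Section 4 sector 1 of embryo 1 held 725 TPM of CGA, a hormone subunit of trophoblast, 289 TPM of IGFBP3 and 144 TPM of ESAM, an endothelial adhesion molecule. No other high-index region had over 20.9 TPM of any of these genes. Section 4 sector 2 of embryo 1 held 3436 TPM of the apolipoprotein APOA1 and 263 TPM of transthyretin, both abundant in visceral endoderm. APOA1 was at most 561 TPM in the other 7, and AFP and APOB were 3.61 and 12.1 TPM in the region with the most APOA1. Neither region entered the estimated differences, because embryo 1 had no low-index region, and without embryo 1 the counts were 100 higher and 9 lower.

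The 23 regions ranked in the middle had medians between those of the groups for the endoderm genes. SHISA2 had 4.36, 22.7 and 235 TPM there (lowest, median and highest), and 8 of 23 exceeded every low-index region. HHEX had 0, 9.22 and 139 TPM, and again 8 of 23 exceeded every low-index region. OTX2 had 0.274, 76.7 and 333 TPM, and 3 of 23 exceeded every low-index region. FZD5 had 0.159, 5.23 and 52.0 TPM in the middle, with 2 of 23 above every low-index region. The high-index regions were not simply those with the most endoderm signal. Middle section 6 sector 6 of embryo 2 held 335 TPM of FOXA2 and 945 TPM of CER1. Its mean log2(TPM + 1) of FOXA2, SOX17 and CER1, 7.98, was above the highest of a high-index region, 7.83. That of MESP1, TBX6 and MSGN1 was 3.99, which left its index at 4.00.

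At E20 7 regions of the single embryo had EOMES at 10 TPM or more, too few for groups, and each gene was instead fitted as a slope on the same index. Of 11017 genes tested, 0 were called (0%; limma, adjusted p below 0.05), with 334 at an unadjusted p below 0.05 (3.03%) and 0 calls in every alternative run. All 7 regions come from 1 embryo, so these p-values are too small as well. Section 6 sector 2, with an index of 5.44, was the 1 E20 region in the range of the E18 high-index regions.

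In E20 section 6 sector 2, HHEX was 156 TPM, SHISA2 457 TPM and CXCR4 142 TPM. CHRD, FOXJ1 and TEKT1 were present there too, with CHRD at 408 TPM, FOXJ1 at 33.1 TPM and TEKT1 at 69.6 TPM. The next region, section 6 sector 1 with an index of 4.04, held 10.6 TPM of HHEX and 11.2 TPM of CHRD. Section 7 sector 3, with an index of 0.91, held 446 TPM of LHX1, 50.8 TPM of GSC and 98.8 TPM of MESP1 together, as low-index section 5 sector 6 did at E18. KYNU was highest in section 2 sector 4, at 124 TPM, a region with 13681 TPM of APOA1 and 1987 TPM of TTR.

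Of the 113 genes that were higher in high-index regions at E18, 88 could be tested at E20 and 68 of these (77.3%) had a positive slope, against 53.1% of all genes. This rested on section 6 sector 2, since without it 24 of 82 (29.3%) were positive, against 50.0% of all genes. Leaving out each other region gave 60 to 79 positive. Of the 14 genes lower at E18, 10 could be tested and 9 had a negative slope, where 53.1% of all genes had a positive one. The negative count was 7 of 10 without section 6 sector 2 and 5 of 7 without section 6 sector 3. Without each other region it was between 6 of 8 and 10 of 10.

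**Figure D5:**
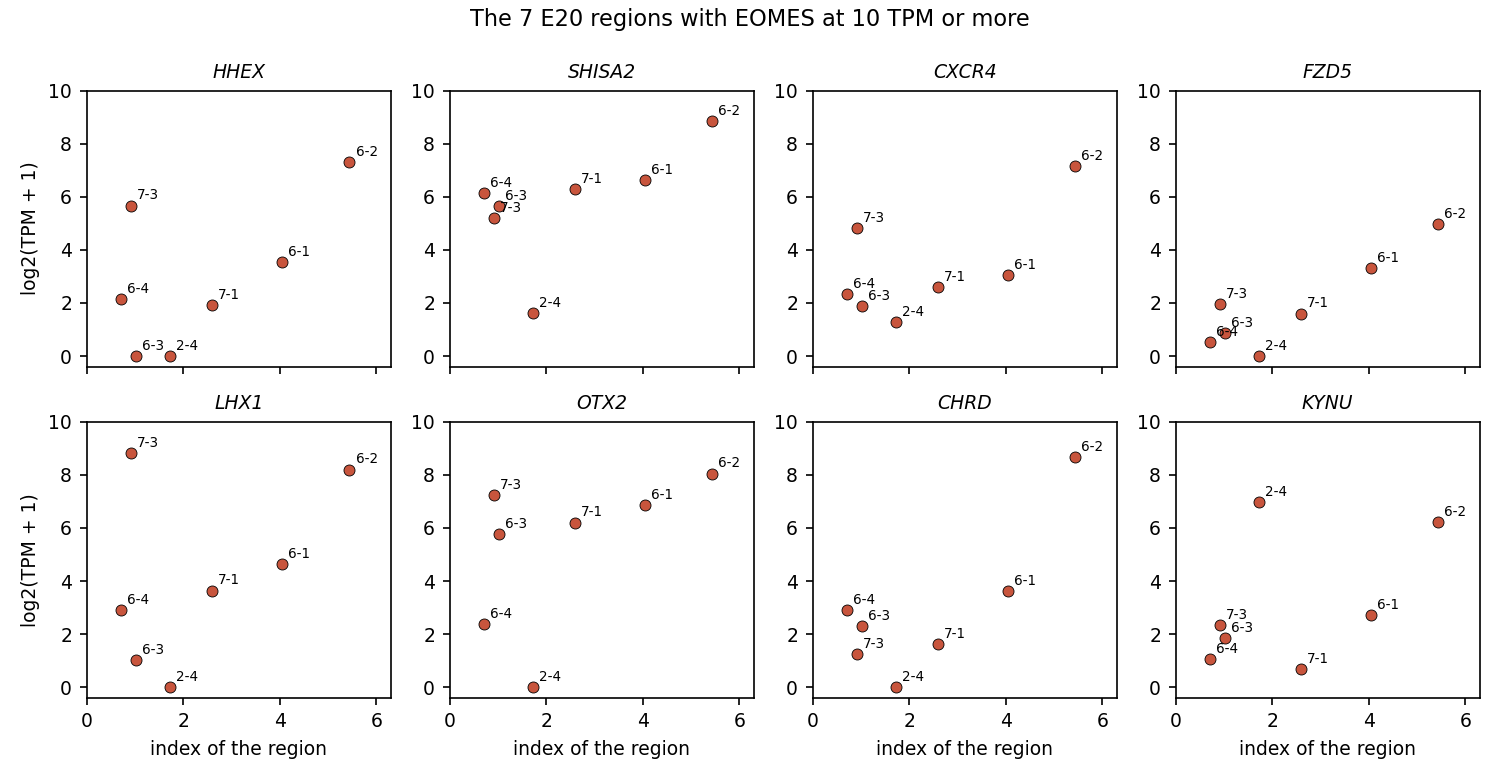
Log2(TPM + 1) of 8 genes (panels) against the index in the 7 E20 regions with EOMES at 10 TPM or more, each labelled by section-sector. Section 6 sector 2 is the region furthest right and highest for HHEX, SHISA2, CXCR4, FZD5, OTX2 and CHRD, while section 7 sector 3 is highest for LHX1 and section 2 sector 4 for KYNU.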

How the data were processed

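Geo-seq libraries of 86 laser-cut regions (50 from 2 embryos at E18, 36 from 1 embryo at E20) were analysed from the authors' deposited table of TPM for 17023 genes; fastp, HISAT2 and StringTie are named in the submitters' processing notes, without versions. The genome build, annotation, strand handling and read depth were not given in the sources used here. Without depth, counting error is unknown. TPM summed to between 495547 and 747979 per E18 region. Columns were matched to regions by their labels, and none was left over.

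The regions and gene lists were chosen with earlier results of these data known. Values were set on log2(TPM + 1) and genes with at least 1 TPM in at least 4 of the 16 regions were tested (E20: 3 regions), without the 7 genes of the ranking. limma 3.58.1 in R 4.3.3 was used with embryo as a block, variance trend and Benjamini-Hochberg adjustment over all genes tested; the scripts were tested on simulated data. Only embryo 2 held both groups, so a test of whether the embryos differ and a fit without embryo 2 were not possible. Section position, genes detected and mitochondrial share were compared by exact permutation within embryos. Named were the 12 largest differences among the higher called genes averaging at least 5 TPM, and all 7 lower called genes that averaged as much. List members and genes stated to be picked out afterwards were named as well. List genes absent from the table were not analysed here, and no sequences were used. The alternatives were the pseudocount, filter, scaling, block, covariate, group size, EOMES limit, ranking genes and each region left out.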

Additional observations from a re-analysis of the deposited data

Results flagged for a closer look

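Among 74 sets of 8 values (each named gene, genes detected and mitochondrial share, in each group), 11 held a region far from the other 7 by Dixon's criterion, where chance gives about 1 in 20. Values of genes here are log2(TPM + 1).

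High-index section 5 sector 3 of embryo 2 stood apart in 5 of them. KYNU was 2.53 there, against 5.69 to 6.71 in the other 7 high-index regions. C4H6orf163 was 0.305, against 4.21 to 6.52. WFDC2 was 7.02, against 9.8 to 11.3. CFAP43 was 6.25, against 2.13 to 3.69. Genes detected numbered 13958, against 11065 to 12435. This region is also the one with the most CHRD and FOXJ1.

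High-index section 4 sector 2 of embryo 2 had a GSC level of 2.67, against 5.67 to 6.70 in the others. COL18A1 was 2.40 in high-index section 4 sector 1 of embryo 1, against 3.29 to 3.93.

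In the low-index regions, SLC38A3 was 4.64 in section 4 sector 4, against 0.60 to 2.31. PDGFRB was 2.08 in section 2 sector 1, against 3.39 to 4.00. PSORS1C2 was 2.05 in section 3 sector 4, against 3.31 to 3.84. SIX3 was 2.48 in section 1 sector 1, against 0 to 0.94.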

How the results depend on the processing

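All 35 named genes kept their sign under each of up to 39 alternatives run, and 7 (FZD5, LHB, ARHGDIG, KYNU, HHEX, CXCR4 and SHISA2) stayed called in each; over all named genes 1014 of 1354 alternative values kept the call and 340 lost it. The numbers of calls moved more, and the cause was not tested. Against 113 higher and 14 lower genes, the higher count was 69 with a pseudocount of 0.1, 72 after quantile normalization, 42 without mitochondrially encoded genes, 174 without the embryo block, 38 with 10 regions per group, 239 for a slope over all 39 regions, 182 without SOX17 in the index and 23 without MSGN1. The lower count was 4 with the stricter TPM filter, 53 without the embryo block, 44 at EOMES of 5 TPM, 27 at EOMES of 20 TPM, 60 for the slope, and 24, 28, 44, 32, 32 and 2 without FOXA2, SOX17, CER1, MESP1, TBX6 and MSGN1 in the index. Alternatives added after seeing the data gave 62 higher and 29 lower without the pair of low-index regions with little mesoderm signal (56 of 127 calls shared), and 55 and 23 with low-index regions below an index of -1 only (53 shared).

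Without embryo 1 the counts were 100 and 9. Leaving out each region gave 32 to 220 higher and 2 to 42 lower genes. The higher count was 32 without section 6 sector 3, 32 without section 5 sector 2, 45 without section 5 sector 1, 63 without section 6 sector 2, 70 without section 2 sector 1, 73 without section 2 sector 3 and 220 without section 5 sector 3, all of embryo 2. The lower count was 2, 2, 4, 6, 8 and 42 without section 6 sector 3, section 5 sector 2, section 5 sector 1, section 6 sector 2, section 2 sector 3 and section 5 sector 3, 9 without either region of embryo 1, and 23 without section 5 sector 6. Dropping mitochondrially encoded genes moved the median difference of all genes to -0.12 from 0.13. With genes detected as a covariate 109 higher and 11 lower genes were called. Section position differed by 0.475 with an adjusted p of 0.04995 (exact permutation) at EOMES of 20 TPM, and by 0.342 with an adjusted p of 0.175 without the pair with little mesoderm signal. Within embryo 2, on which both p-values rest, the differences were 0.433 and 0.3. No paired analysis was possible because the labels number embryos within a stage, the stages were not compared with each other, and only E18 embryo 2 held both kinds of region. Sections 4 and 5 of that embryo held both kinds, and with section as a random block 121 higher and 17 lower genes were called. The fit without embryo 2 was not possible because embryo 1 had no low-index region.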
